A study of Mus musculus with 26 samples.

Results

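The genes described here encode the translation initiation factors eIF1 to eIF6 and the elongation factors eEF1 and eEF2, with the enzymes named after them. They were chosen by gene symbol, as symbols that begin with Eif1 to Eif6 or with Eef1 or Eef2. The rule itself was set with earlier results of these data known. Kinases of eIF2 alpha, the eEF2 kinase and the eIF4E binding proteins were left out. The rule found 54 genes among the 19938 genes measured.

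The 26 arrays, of the Affymetrix Mouse Gene type, profiled Ba/F3/gp130 cells, a murine pro-B cell line that depends on interleukin-3 or Hyper-IL-6 and also carries gp130, the signalling chain of IL-6 family cytokines. One line expressed the natural IL-22 receptor chains, IL-10R2 and IL-22Rα1, and was given IL-22 (n = 4) or left untreated (n = 4). The other line expressed synthetic versions of these chains, in which IL-10R2 carried a nanobody against mCherry and IL-22Rα1 one against GFP, and was given a GFP-mCherry fusion protein (n = 6), an mCherry-Fc dimer (n = 6) or nothing (n = 6). GFP-mCherry can bind both synthetic chains and mCherry-Fc only the mCherry nanobody chain. All cells, the untreated ones included, were washed and starved without serum for 4 h, and ligands were given at 100 ng/ml, for 2 h where no other time was stated. No group received a control protein, so ligand contrasts cannot tell receptor activation apart from the addition of protein. The labels do not say whether arrays of a group came from separate cultures, so p-values measure only the spread between these arrays.

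Translation of a mRNA begins when eIF2, loaded with GTP and the initiator tRNA, joins the small ribosomal subunit together with eIF1, eIF1A, eIF3 and eIF5. The cap at the mRNA's 5′ end is bound by eIF4E, which the scaffold eIF4G connects to the RNA helicase eIF4A and, through eIF3, to the ribosome. After each round eIF2 is left with GDP, and the eIF2B complex exchanges this for GTP. During elongation eEF1A brings aminoacyl-tRNAs to the ribosome, the eEF1B subunits recharge eEF1A with GTP, and eEF2 moves the ribosome along the mRNA. Cytokines and other growth signals are known to act on this machinery, and haematopoietic lines such as Ba/F3 need a cytokine to grow.

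Values are log2 intensities per probe set, which the authors made, so a difference of 1 is a doubling. They order samples for one probe set but not different probe sets among themselves. Array medians lay between 6.06 and 6.28, and arrays of one group correlated at 0.981 to 0.994. In limma's fit over all 26 arrays, a gene was called where its Benjamini-Hochberg adjusted p over the 19938 genes was under 0.05, and "rose" and "fell" are used for such genes alone. In the natural receptor line, arrays with high replicate numbers (4 and 5) stood apart from those with low numbers (1 to 3). In the synthetic receptor line, numbers 7 to 11 are called low and 12 to 15 high. No label ties these ranges to those of the natural receptor line. Itgam, a myeloid integrin gene, stood at 11.73 to 12.05 on the 3 high-numbered arrays and at 8.73 to 8.98 on the 5 low-numbered ones, and Mpo, the myeloperoxidase gene, at 10.62 to 11.00 against 6.97 to 7.19. 4 of 5 myeloid markers were separated in this way, and the mean over the 5 markers was 9.54 to 9.83 on the high-numbered arrays and 7.71 to 7.77 on the low-numbered ones. Of the pro-B markers 4 of 11 measured (Cd79a, Cd79b, Vpreb2 and Il3ra) were above the median of all genes, while Pax5, Ebf1, Rag1 and Il7r were below it, as were all 4 T cell markers measured. The 3 erythroid markers measured, Klf1, Gata1 and Epor, were above it on every array. Their mean was 8.07 to 8.19 with IL-22 against 8.68 to 8.73 untreated within low numbers, and 8.43 against 8.70 to 8.78 within high numbers, and its part in the results was not tested. In such bulk samples, fewer cells of a type and less RNA per cell cannot be told apart. The part of the number range in the results was not tested, and values within each range are given beside the main genes it moved.

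With GFP-mCherry 28 of the 54 factor genes passed the test against untreated synthetic receptor cells, 23 higher and 5 lower, where 26% of all genes passed (14.2% higher and 11.8% lower). With mCherry-Fc 25 passed, 22 higher and 3 lower, where 26.9% of all genes passed (14% higher and 13% lower). With IL-22 only 9 passed against untreated natural receptor cells, 8 higher and 1 lower, where 11.4% of all genes passed (5.39% higher and 6.03% lower). This count was 5 with the replicate number as a block, and it ran from 3 without IL-22 replicate 3 to 14 without IL-22 replicate 5. The median log2 difference of the 54 genes was 0.12 with GFP-mCherry, 0.11 with mCherry-Fc and 0.05 with IL-22, beside -0.04, -0.04 and -0.02 over all genes. Few factor genes are dim, and this bears on these shares. Among the 11682 genes with a mean log2 value of at least 6, which hold 51 of the 54, 29 of the 51 passed with GFP-mCherry where 40.7% of genes did. In the same set 28 passed with mCherry-Fc where 40.1% of genes did, and 11 with IL-22 where 21.7% did, so the number called with IL-22 was near the background of genes as bright. Treated and untreated arrays did not overlap for 18 of the 54 genes with GFP-mCherry, for 17 with mCherry-Fc and for 8 with IL-22, where this held for 14.1%, 11.3% and 11.4% of all genes. GFP-mCherry and mCherry-Fc were set against the same 6 untreated arrays, so their values are given side by side and not as independent counts.

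The split by direction depended on scaling. With each array centred on its median, 34 genes were higher and 2 lower with each synthetic ligand, where 26% of all genes passed with GFP-mCherry and 27.6% with mCherry-Fc. With IL-22 8 were then higher and 0 lower, where 9.56% of all genes passed. With the arrays quantile normalized again, the split was 18 higher and 6 lower with GFP-mCherry and 14 higher and 5 lower with mCherry-Fc, where 19.8% and 16.2% of all genes passed. Centring moved the median of all genes to 0.06 with GFP-mCherry and to 0.07 with mCherry-Fc. Quantile normalization moved it to -0.01 with each. The direction of the calls over all genes was not counted under these scalings, so these splits have no background by direction.

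**Figure D1:**
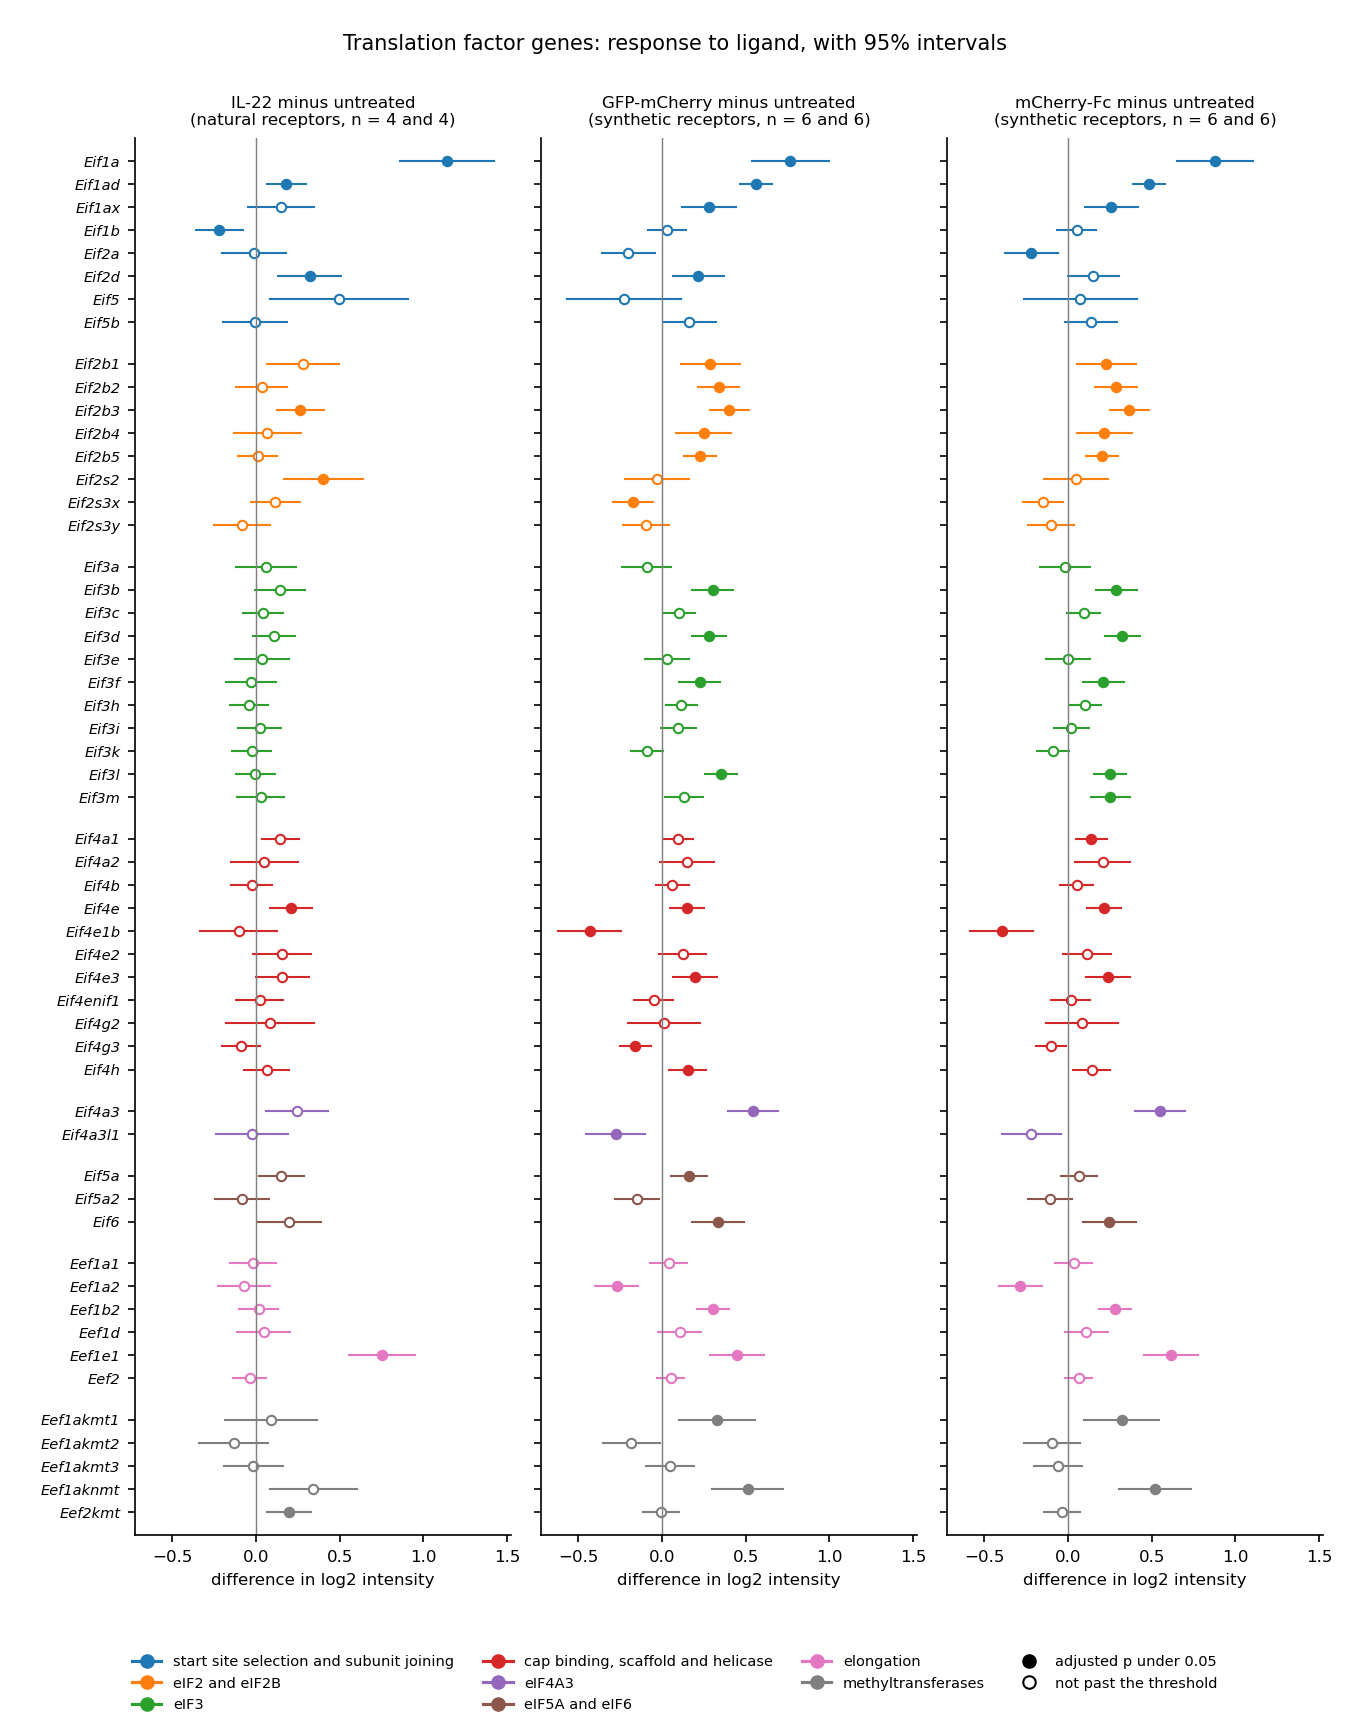
Differences in log2 intensity between ligand-treated and untreated cells for the 54 factor genes (rows, coloured by role), with 95% intervals from limma, for IL-22 in the natural receptor line and for GFP-mCherry and mCherry-Fc in the synthetic receptor line. Filled points passed the adjusted p threshold of 0.05, 9 with IL-22, 28 with GFP-mCherry and 25 with mCherry-Fc, and Eif1a had the highest point in each panel.

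Promoters are shown for Eef1e1, Eif1ad and Eif4e, which rose with IL-22 and with each synthetic ligand and have an entry in the promoter table. The rise of Eif4e rests on 1 of 3 probe sets. Whether that probe set reads Eif4e or a near-identical copy is not known here, so the promoter printed may not be that of the sequence that rose. Each is the 250 bases before an annotated start in RefSeq's GRCm38.p6 annotation, read 5′ to 3′ on the gene's strand, and capitals mark a match to the E-box CACGTG, which MYC family factors bind, or to the STAT site TTCNNNGAA. Both motifs read the same on either strand.
Eef1e1, chr13:38659029-38659278, minus strand: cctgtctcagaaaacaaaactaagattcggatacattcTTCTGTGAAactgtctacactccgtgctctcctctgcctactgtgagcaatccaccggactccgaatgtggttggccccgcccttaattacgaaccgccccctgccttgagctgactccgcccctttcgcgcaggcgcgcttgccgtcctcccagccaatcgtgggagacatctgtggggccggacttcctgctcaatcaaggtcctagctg
Eif1ad, chr19:5366563-5366812, plus strand: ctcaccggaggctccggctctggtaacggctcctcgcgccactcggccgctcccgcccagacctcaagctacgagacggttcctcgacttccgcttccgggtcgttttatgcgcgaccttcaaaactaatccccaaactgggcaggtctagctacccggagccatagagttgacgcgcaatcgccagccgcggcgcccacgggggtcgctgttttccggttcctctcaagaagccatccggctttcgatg
Eif4e, chr3:138527018-138527267, plus strand: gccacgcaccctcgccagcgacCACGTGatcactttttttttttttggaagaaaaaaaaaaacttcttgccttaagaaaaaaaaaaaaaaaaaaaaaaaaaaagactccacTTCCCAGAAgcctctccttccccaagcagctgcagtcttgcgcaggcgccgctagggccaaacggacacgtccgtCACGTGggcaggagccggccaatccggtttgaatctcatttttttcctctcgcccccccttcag

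The Eef1e1 promoter held 1 STAT match, 212 bases before the start, and no E-box. The Eif4e promoter printed held 2 E-boxes, 228 and 64 bases before the start, and 1 STAT match 139 bases before it, while a second annotated Eif4e promoter and that of Eif1ad held neither motif. Over the 42 factor genes in the table, 10 (23.8%) held an E-box in the same window, where 1854 of 27025 genes (6.86%) did. These were Eef1aknmt, Eef2, Eif1b, Eif3f, Eif3k, Eif4a1, Eif4e, Eif4h, Eif5a and Eif5a2. A STAT match was held by 3 of the 42 (7.14%), Eef1e1, Eif3c and Eif4e, where 2197 of 27025 genes (8.13%) held one. The 27025 genes are all those in the promoter table, whether or not measured or bright here, so these shares are not matched for brightness. The matches describe letters in these windows and not binding.

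Among the 8 genes for start site selection and subunit joining, 4 rose with GFP-mCherry. With mCherry-Fc 3 rose and 1 fell, and with IL-22 3 rose and 1 fell. Counts by role, here and below, are read against the 26%, 26.9% and 11.4% of all genes called with GFP-mCherry, mCherry-Fc and IL-22. Among genes with a mean of at least 6 these shares were 40.7%, 40.1% and 21.7%. Eif1a, which encodes a form of eIF1A, the factor that helps the ribosome scan for the start codon, had the largest difference of the 54 genes with every ligand. It stood at 10.18, 10.19, 10.19 and 9.59 on the 4 IL-22 arrays and at 9.15, 9.10, 8.69 and 8.66 on the untreated natural receptor arrays. It stood at 9.23 to 9.40 (median 9.28) with GFP-mCherry and at 9.25 to 9.64 (median 9.37) with mCherry-Fc, against 8.22 to 8.80 (median 8.57) in untreated synthetic receptor cells. No ligand-treated array overlapped its untreated group. The rise was 2.21-fold with IL-22 (log2 1.14, SE 0.137, limma's adjusted p = 3.87e-07), 1.70-fold with GFP-mCherry (log2 0.77, SE 0.112, adjusted p = 1.04e-05) and 1.84-fold with mCherry-Fc (log2 0.88, SE 0.112, adjusted p = 3e-06). The low value with IL-22, 9.59, was on the high-numbered array, and so were the low untreated values, 8.69 and 8.66. Within low numbers the IL-22 difference was 1.06, and within high numbers, with 1 IL-22 array, it was 0.92. With GFP-mCherry it was 0.98 within low numbers and 0.55 within high numbers.

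Eif1ad, which encodes a protein with an eIF1A-like domain, had the smallest adjusted p of the factor genes with both synthetic ligands. Its values were 9.39 to 9.52 (median 9.45) with GFP-mCherry and 9.31 to 9.42 (median 9.38) with mCherry-Fc, against 8.83 to 8.94 (median 8.88) in untreated synthetic receptor cells, with a wide gap between treated and untreated arrays. It rose 1.48-fold with GFP-mCherry (log2 0.56, SE 0.0465, limma's adjusted p = 1.13e-09) and 1.40-fold with mCherry-Fc (log2 0.49, adjusted p = 3.94e-08). With IL-22 the arrays stood at 9.48, 9.56, 9.58 and 9.40, against 9.38, 9.37, 9.18 and 9.37 in untreated natural receptor cells. This rise was smaller, at 0.18 (adjusted p = 0.0356), was not called with the replicate number as a block, and had an adjusted p of 0.176 without untreated replicate 4, the lowest array, and of 0.0567, 0.118 and 0.136 without IL-22 replicates 1, 2 and 3. The mCherry-Fc arrays overlapped the untreated natural arrays in level, while every GFP-mCherry array lay above them.

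The other genes of this group moved less. Eif2d, an alternative initiation factor that also takes part in recycling, stood at 8.88, 8.80, 8.93 and 9.32 with IL-22, against 8.51, 8.55, 8.73 and 8.85 in untreated natural receptor cells, and rose by 0.32 (limma's adjusted p = 0.0183). Without IL-22 replicate 5, the highest array, its adjusted p was 0.0896, and without untreated replicates 2 and 3 it was 0.0804 and 0.0682. With GFP-mCherry Eif2d stood at 8.73 to 8.89 (median 8.77), with mCherry-Fc at 8.60 to 8.90 (median 8.70) and in untreated synthetic receptor cells at 8.42 to 8.65 (median 8.56). It rose by 0.22 with GFP-mCherry and did not pass with mCherry-Fc (log2 0.15, adjusted p = 0.133). Eif1b, a paralogue of eIF1, was the only factor gene lower with IL-22, at 9.81, 10.05, 10.01 and 10.22 against 10.22, 10.17, 10.29 and 10.29 in untreated cells. Its fall of 0.22 was lost with the replicate block, and passed on leaving out 1 array only where that array was IL-22 replicate 5 or untreated replicate 3, with adjusted p-values of 0.0526 to 0.208 otherwise. Eif1ax, the X-linked eIF1A gene, rose by 0.28 with GFP-mCherry and by 0.26 with mCherry-Fc. Eif2a, which encodes an initiation factor distinct from the eIF2 complex, stood at 10.24 to 10.51 (median 10.39) with mCherry-Fc, at 10.24 to 10.52 (median 10.42) with GFP-mCherry and at 10.38 to 10.80 (median 10.60) in untreated synthetic receptor cells. It fell by 0.22 with mCherry-Fc (adjusted p = 0.0348) and had a log2 difference of -0.20 with GFP-mCherry that did not pass (adjusted p = 0.0529). Eif5b, for the GTPase that joins the subunits, passed with no ligand.

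Eif5, which encodes the GTPase-activating protein that acts on eIF2 at the start codon, did not pass with any ligand over all arrays, and its values moved with the replicate number range. It stood at 11.01, 11.13, 11.22 and 10.13 with IL-22, against 10.77, 10.69, 10.14 and 9.91 in untreated natural receptor cells, so the high-numbered arrays of both groups were the low ones. In synthetic receptor cells it stood at 10.30 to 10.60 (median 10.46) with GFP-mCherry, at 10.59 to 10.96 (median 10.74) with mCherry-Fc and at 10.28 to 11.04 (median 10.74) in untreated cells. Here the high-numbered untreated arrays, at 10.92 to 11.04, were above the low-numbered ones, at 10.28 to 10.55. Within high numbers Eif5 was 0.55 lower with GFP-mCherry than untreated (log2 -0.55, limma's adjusted p = 0.00125, n = 3 each), while within low numbers the difference was 0.09. Within low numbers it was higher with IL-22 by 0.39 (adjusted p = 0.0104, n = 3 and 2), and within high numbers by 0.10, which did not pass (adjusted p = 0.822, with 1 IL-22 array).

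**Figure D2:**
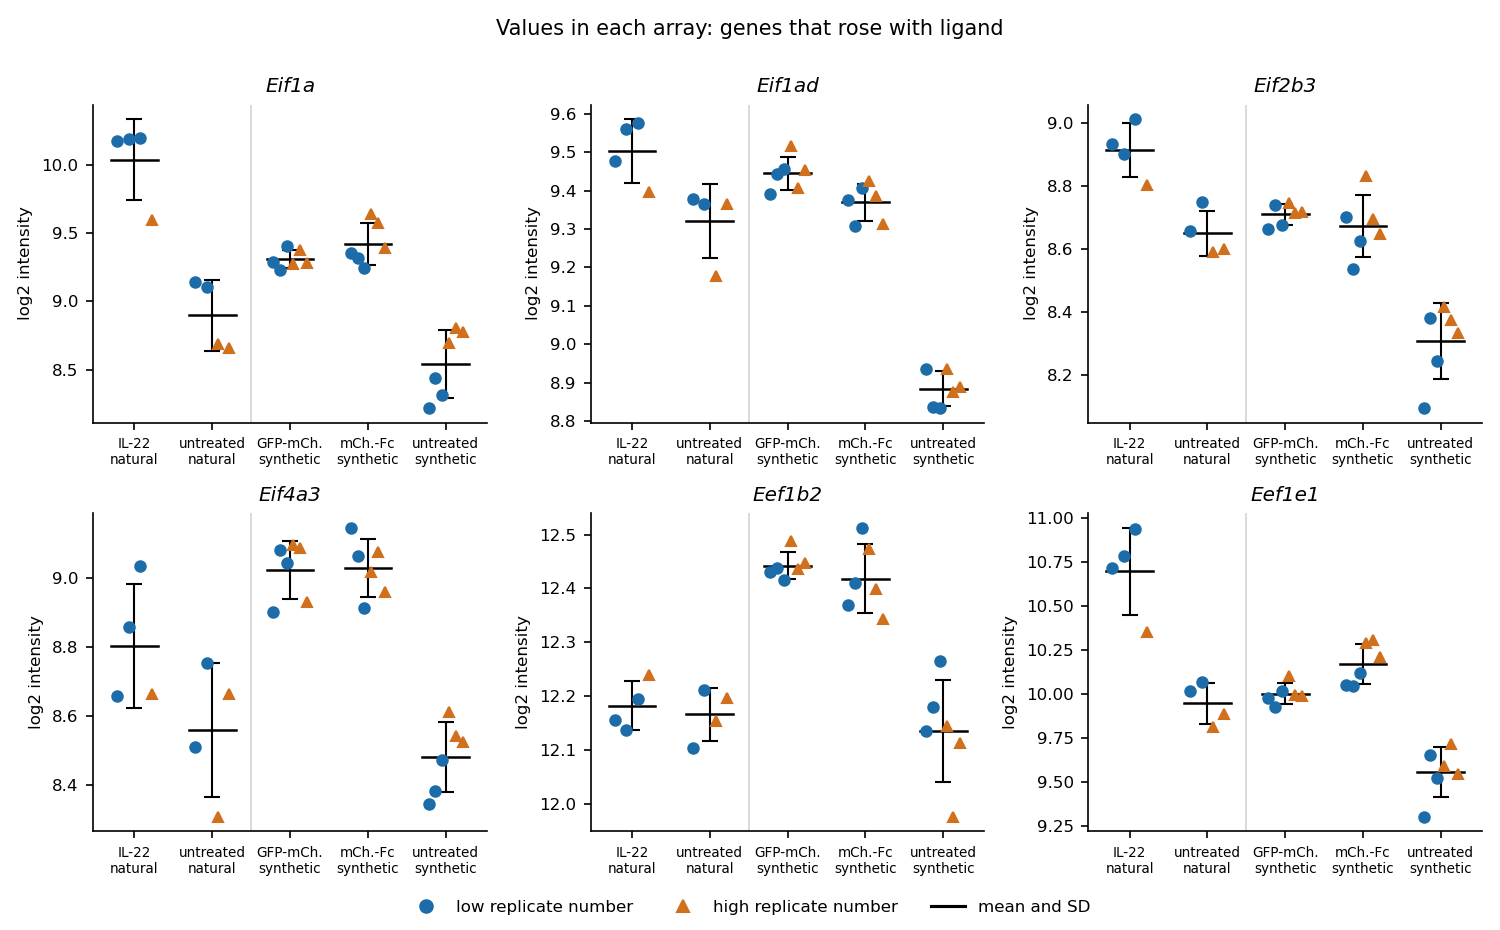
Log2 intensity of 6 factor genes on every array, by group, with circles for low and triangles for high replicate numbers and black lines for the mean and SD (n = 4, 4, 6, 6 and 6). Eif1a and Eef1e1 were higher with every ligand with no overlap with untreated arrays, while Eef1b2 was higher with the synthetic ligands and nearly level with IL-22.

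All 5 subunit genes of eIF2B, Eif2b1 to Eif2b5, rose with GFP-mCherry and with mCherry-Fc. Eif2b3, for the gamma subunit of the catalytic part of the complex, moved most. It stood at 8.66 to 8.75 (median 8.71) with GFP-mCherry and 8.54 to 8.83 (median 8.67) with mCherry-Fc, against 8.09 to 8.42 (median 8.35) in untreated synthetic receptor cells, without overlap. The rise was 1.32-fold with GFP-mCherry (log2 0.40, SE 0.0564, limma's adjusted p = 6e-06) and 1.29-fold with mCherry-Fc (log2 0.37, adjusted p = 3.6e-05). With IL-22 it stood at 8.93, 8.90, 9.01 and 8.80, against 8.66, 8.75, 8.59 and 8.60 in untreated natural receptor cells, again without overlap, and rose by 0.26 (adjusted p = 0.00934). This call was lost with the replicate block and had an adjusted p of 0.0505 without IL-22 replicate 3.

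Eif2b2, for the beta subunit, stood at 9.44 to 9.70 (median 9.56) with GFP-mCherry and at 9.33 to 9.67 (median 9.54) with mCherry-Fc, against 9.14 to 9.27 (median 9.24) in untreated synthetic receptor cells. It rose by 0.34 (limma's adjusted p = 0.000135) and 0.29 (adjusted p = 0.00112). With IL-22 its values of 9.17, 9.12, 9.22 and 9.14 overlapped the untreated ones of 9.08, 9.25, 9.01 and 9.18 (log2 0.03). The other 3 subunit genes rose by 0.29 (Eif2b1), 0.25 (Eif2b4) and 0.23 (Eif2b5) with GFP-mCherry and by 0.23, 0.22 and 0.20 with mCherry-Fc. With mCherry-Fc the calls of Eif2b1 and Eif2b4 were close to the threshold, with adjusted p-values of 0.0485 and 0.0462, and quantile normalization ended both and that of Eif2b5. The number ranges differed here. Within low and within high numbers the GFP-mCherry difference was 0.43 and 0.15 for Eif2b1, which passed within low numbers, and 0.12 and 0.33 for Eif2b5, which passed within high numbers. With mCherry-Fc it was 0.12 and 0.29 for Eif2b5 and 0.20 and 0.38 for Eif2b2, and both passed within high numbers alone.

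The eIF2 complex itself carries the initiator tRNA. Eif2s2, for the beta subunit, stood at 10.98, 11.09, 11.15 and 10.65 with IL-22, against 10.68, 10.63, 10.51 and 10.44 in untreated natural receptor cells. It rose by 0.40 (limma's adjusted p = 0.0176), and its second probe set rose by 0.37. It did not pass with IL-22 replicate 2 or 3 or untreated replicate 5 left out, where its adjusted p was up to 0.0886. Within low numbers the IL-22 difference was 0.42, and within high numbers, with 1 IL-22 array, it was 0.18 and did not pass. In synthetic receptor cells Eif2s2 stood at 10.41 to 10.68 (median 10.51) with GFP-mCherry, at 10.49 to 10.70 (median 10.61) with mCherry-Fc and at 10.25 to 10.86 (median 10.56) untreated, so the treated arrays lay inside the untreated range. Within high numbers it fell by 0.23 with GFP-mCherry (adjusted p = 0.0392), and within low numbers it rose by 0.21 with mCherry-Fc (adjusted p = 0.0279). Eif2s3x, the X-linked gamma subunit gene, fell by 0.17 with GFP-mCherry (adjusted p = 0.0307), with values of 11.77 to 11.91 (median 11.83) against 11.86 to 12.21 (median 12.00) in untreated cells. With mCherry-Fc it stood at 11.75 to 11.92 (median 11.86) and did not pass (log2 -0.15, adjusted p = 0.0615). The IL-22 arrays stood at 11.73, 11.93, 11.82 and 11.67 against 11.77, 11.70, 11.61 and 11.61 (log2 0.12, adjusted p = 0.418). Its Y-linked copy Eif2s3y passed with no ligand. Eif2s1, the alpha subunit gene, was not analysed here.

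None of the 11 genes of eIF3, the large scaffold on the small ribosomal subunit, passed with IL-22, where their log2 differences ran from -0.04 to 0.14 and 0 of them had an unadjusted p under 0.05 in limma's fit (the lowest was 0.0608, for Eif3b), where 20.7% of all genes did. With GFP-mCherry 4 of the 11 rose and with mCherry-Fc 5 rose, and none fell, where 26% and 26.9% of all genes passed. Among genes with a mean of at least 6, tested by themselves, 40.7% and 40.1% passed. Eif3l stood at 10.58 to 10.69 (median 10.65) with GFP-mCherry and at 10.42 to 10.65 (median 10.56) with mCherry-Fc, against 10.23 to 10.36 (median 10.30) in untreated synthetic receptor cells. It rose by 0.35 (limma's adjusted p = 2.76e-06) and by 0.25 (adjusted p = 0.00031). With IL-22 it was level, at 10.22, 10.24, 10.19 and 10.23 against 10.25, 10.34, 10.20 and 10.11 (log2 -0.00, 95% interval -0.12 to 0.11).

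Eif3b, for a core subunit of eIF3, stood at 10.77 to 10.88 (median 10.81) with GFP-mCherry and 10.70 to 10.89 (median 10.83) with mCherry-Fc, against 10.43 to 10.60 (median 10.52) in untreated synthetic receptor cells. It rose by 0.30 and 0.29 without overlap. The IL-22 arrays stood at 10.78, 10.73, 10.79 and 10.48 against 10.70, 10.65, 10.43 and 10.42, and did not pass (log2 0.14, limma's adjusted p = 0.274). Eif3d, whose product can itself bind the cap of some mRNAs, stood at 10.60 to 10.85 (median 10.67) with GFP-mCherry and 10.67 to 10.80 (median 10.73) with mCherry-Fc, against 10.31 to 10.53 (median 10.41) untreated. It rose by 0.28 and 0.33. With IL-22 Eif3d stood at 10.77, 10.80, 10.79 and 10.82 against 10.64, 10.67, 10.74 and 10.70, which did not overlap but did not pass (log2 0.11, adjusted p = 0.361). Eif3f rose by 0.22 and 0.21 with the synthetic ligands. Within low and within high numbers the GFP-mCherry difference was 0.14 and 0.42 for Eif3d and 0.09 and 0.36 for Eif3f, and both passed within high numbers alone, while with mCherry-Fc both passed in each range. Eif3m rose by 0.25 with mCherry-Fc, at 10.01 to 10.11 (median 10.05) against 9.62 to 9.96 (median 9.82) untreated, and with GFP-mCherry it stood at 9.78 to 10.10 (median 9.93) and did not pass (log2 0.13, adjusted p = 0.0872), although a second probe set did (log2 0.20, adjusted p = 0.0435). Its values with IL-22 were 9.46, 9.64, 9.55 and 9.64 against 9.61, 9.54, 9.47 and 9.57 (log2 0.03). Eif3a, Eif3c, Eif3e, Eif3h, Eif3i and Eif3k passed with no ligand.

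Of the 11 genes for cap binding, the scaffold and the helicase, 3 rose and 2 fell with GFP-mCherry, 3 rose and 1 fell with mCherry-Fc, and 1 rose with IL-22. Eif4e, the cap binding protein gene, stood at 10.85, 10.93, 10.93 and 10.81 with IL-22, against 10.74, 10.63, 10.63 and 10.67 in untreated natural receptor cells. It stood at 10.69 to 10.81 (median 10.76) with GFP-mCherry and 10.77 to 10.87 (median 10.82) with mCherry-Fc, against 10.47 to 10.78 (median 10.59) in untreated synthetic receptor cells. The rises were small, at 0.21 with IL-22 (limma's adjusted p = 0.0219), 0.15 with GFP-mCherry (adjusted p = 0.0261) and 0.22 with mCherry-Fc (adjusted p = 0.00248). They rest on 1 of 3 probe sets annotated to Eif4e, the brightest. The other 2, with means of 6.77 and 7.11, passed with no ligand, and the IL-22 call was also lost with the replicate block and without IL-22 replicate 2 or 3 or untreated replicate 3 or 4 (adjusted p = 0.0601 to 0.0782). The sources used here do not say whether the bright probe set reads Eif4e or a near-identical copy, so the gene's response is uncertain. The same limit holds for the brightest probe sets of Eif2s2, Eif3m, Eif4a1 and Eif5a, whose other probe sets gave other calls in some comparisons.

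Eif4e1b, an eIF4E relative known from oocytes, had the largest fall with both synthetic ligands. It stood at 6.67 to 6.96 (median 6.76) with GFP-mCherry and 6.68 to 7.04 (median 6.77) with mCherry-Fc, against 6.88 to 7.38 (median 7.28) in untreated synthetic receptor cells. The log2 differences were -0.43 (limma's adjusted p = 0.000943) and -0.40 (adjusted p = 0.00256), but a second probe set had differences of -0.00 and 0.02, and both probe sets are near the median of all genes, 6.53. With IL-22 it stood at 7.17, 7.12, 7.28 and 6.68 against 7.08, 7.30, 7.23 and 7.05 and did not pass. Eif4e3, another cap binding relative, rose by 0.20 with GFP-mCherry and 0.24 with mCherry-Fc. Eif4h, a helper of the helicase, rose by 0.15 with GFP-mCherry. Quantile normalization ended these calls of Eif4e3 and Eif4h, and none of them passed within low or within high numbers alone.

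The helicase genes themselves moved little. Eif4a1 stood at 12.53 to 12.64 (median 12.60) with mCherry-Fc and at 12.50 to 12.58 (median 12.54) with GFP-mCherry, against 12.39 to 12.50 (median 12.46) in untreated synthetic receptor cells. It rose by 0.14 with mCherry-Fc (limma's adjusted p = 0.0213), a call lost with the replicate block, and did not pass with GFP-mCherry (log2 0.09, adjusted p = 0.117). The IL-22 arrays stood at 12.73, 12.76, 12.73 and 12.55 against 12.62, 12.60, 12.50 and 12.47 and did not pass (log2 0.15, adjusted p = 0.0873), although its other 2 probe sets did, at 0.17 and 0.18. Eif4a2, for the second eIF4A, stood at 9.51, 9.58, 9.77 and 9.92 with IL-22 against 9.59, 9.47, 9.72 and 9.81. With GFP-mCherry it stood at 9.46 to 9.74 (median 9.62) and with mCherry-Fc at 9.64 to 9.69 (median 9.67), against 9.27 to 9.69 (median 9.43) untreated, and it passed with no ligand. Eif4g3, for an eIF4G scaffold, stood at 9.74 to 9.83 (median 9.79) with GFP-mCherry, at 9.80 to 9.88 (median 9.85) with mCherry-Fc and at 9.83 to 10.03 (median 9.96) untreated. It fell by 0.16 with GFP-mCherry (adjusted p = 0.00981), a call lost when arrays were centred on their medians, and did not pass with mCherry-Fc (log2 -0.10). Its IL-22 arrays stood at 9.81, 9.92, 9.90 and 10.07 against 9.98, 10.01, 10.04 and 10.04 (log2 -0.09, adjusted p = 0.422). Eif4b, Eif4e2, Eif4enif1 and Eif4g2 passed with no ligand either, and Eif4g1 was not analysed here.

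Eif4a3, which encodes the eIF4A-like helicase of the exon junction complex, a mark left on spliced mRNAs, had the third largest rise with GFP-mCherry, after Eif1a and Eif1ad. It stood at 8.90 to 9.10 (median 9.06) with GFP-mCherry and at 8.91 to 9.15 (median 9.04) with mCherry-Fc, against 8.34 to 8.61 (median 8.50) in untreated synthetic receptor cells. The rise was 1.46-fold with each (log2 0.54, SE 0.0728, limma's adjusted p = 3.1e-06 with GFP-mCherry, and log2 0.55, adjusted p = 4.99e-06 with mCherry-Fc). With IL-22 its values of 8.66, 8.86, 9.03 and 8.66 overlapped the untreated 8.51, 8.75, 8.31 and 8.66, and the difference of 0.25 did not pass (adjusted p = 0.079). Eif4a3l1, a similar gene, was dim, at 5.61 to 5.75 (median 5.71) with GFP-mCherry, 5.54 to 5.98 (median 5.77) with mCherry-Fc and 5.74 to 6.25 (median 5.94) untreated. It fell by 0.28 with GFP-mCherry, a call lost on centring and on quantile normalization, and stood at 5.91, 5.87, 5.71 and 5.88 with IL-22 against 5.88, 6.02, 5.81 and 5.76.

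Eif6, which keeps the large ribosomal subunit from joining too early, stood at 10.22 to 10.52 (median 10.33) with GFP-mCherry and 10.15 to 10.37 (median 10.27) with mCherry-Fc, against 9.72 to 10.31 (median 10.02) in untreated synthetic receptor cells. It rose by 0.33 (limma's adjusted p = 0.00186) and 0.25 (adjusted p = 0.0189). The rise was 0.54 with GFP-mCherry and 0.41 with mCherry-Fc within high numbers, where untreated arrays were lowest, and 0.13 and 0.09 within low numbers, where it did not pass. With IL-22 Eif6 stood at 10.57, 10.65, 10.52 and 10.35 against 10.27, 10.40, 10.31 and 10.31 and did not pass (log2 0.20, adjusted p = 0.223). Eif5a, whose product carries hypusine and eases difficult peptide bonds, stood at 12.84 to 13.06 (median 12.99) with GFP-mCherry, 12.77 to 12.99 (median 12.88) with mCherry-Fc and 12.77 to 12.90 (median 12.80) untreated. It rose by 0.16 with GFP-mCherry and did not pass with mCherry-Fc (log2 0.06), whereas its second probe set rose with both, by 0.22 and 0.15. With IL-22 Eif5a stood at 12.98, 12.99, 13.07 and 12.85 against 12.95, 12.74, 12.80 and 12.80 (log2 0.15, adjusted p = 0.166).

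Of the 6 elongation factor genes, the main GTPase genes did not pass with any ligand. Eef1a1 stood at 13.94, 13.99, 13.95 and 13.99 with IL-22, against 14.03, 14.00, 13.98 and 13.94 in untreated natural receptor cells. It stood at 13.97 to 14.04 with GFP-mCherry and 13.97 to 14.01 with mCherry-Fc (medians 13.99 each), against 13.63 to 14.05 (median 14.02) untreated. Eef2 stood at 13.07, 13.01, 13.03 and 13.07 with IL-22 against 13.13, 13.10, 13.07 and 13.03, and at 13.09 to 13.16 (median 13.13) with GFP-mCherry and 13.11 to 13.18 (median 13.13) with mCherry-Fc against 12.97 to 13.14 (median 13.09). The 95% intervals of Eef2's differences were -0.14 to 0.06 with IL-22, -0.03 to 0.13 with GFP-mCherry and -0.02 to 0.14 with mCherry-Fc. These probe sets lie near the top of the scale, whose highest value was 14.31. Eef1a2, the eEF1A gene known from muscle and neurons, fell by 0.27 with GFP-mCherry (6.95 to 7.12, median 7.02) and by 0.29 with mCherry-Fc (6.86 to 7.20, median 6.98), against 7.13 to 7.39 (median 7.32) untreated. Its IL-22 arrays stood at 7.28, 7.03, 7.27 and 7.11 against 7.35, 7.12, 7.25 and 7.25 (log2 -0.07). Eef1a2 has 1 probe set, which lies near the median of all genes, 6.53.

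Eef1e1 encodes a small protein, also called p18 or AIMP3, that is related to the eEF1 subunits and sits in the multi-tRNA synthetase complex. It stood at 10.72, 10.79, 10.94 and 10.35 with IL-22, against 10.02, 10.07, 9.82 and 9.89 in untreated natural receptor cells. It stood at 9.93 to 10.11 (median 9.99) with GFP-mCherry and 10.04 to 10.31 (median 10.17) with mCherry-Fc, against 9.30 to 9.72 (median 9.57) untreated. No treated array overlapped its untreated group. The rise was 1.68-fold with IL-22 (log2 0.75, SE 0.0965, limma's adjusted p = 1.31e-06), 1.36-fold with GFP-mCherry (log2 0.45, adjusted p = 0.000119) and 1.53-fold with mCherry-Fc (log2 0.61, adjusted p = 3.5e-06). Eif1a and Eef1e1 were the only factor genes called with IL-22 under all 18 alternatives tried for that comparison.

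Eef1b2, for the exchange factor subunit that recharges eEF1A, passed with both synthetic ligands but not with IL-22, and its responses differed between the lines by limma's interaction term (log2 0.29 for GFP-mCherry and 0.27 for mCherry-Fc, each minus IL-22). Neither interaction passed within low or within high numbers alone, and that with mCherry-Fc was lost with the replicate block (adjusted p = 0.0532). It stood at 12.42 to 12.49 (median 12.44) with GFP-mCherry and 12.34 to 12.51 (median 12.40) with mCherry-Fc, against 11.98 to 12.27 (median 12.14) in untreated synthetic receptor cells, without overlap. It rose by 0.31 (limma's adjusted p = 1.8e-05) and 0.28 (adjusted p = 8.17e-05). With IL-22 it stood at 12.16, 12.14, 12.20 and 12.24 against 12.10, 12.21, 12.15 and 12.20 (log2 0.02). Eef1d, another eEF1B subunit gene, passed with no ligand.

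The calls with the synthetic ligands held unevenly across alternatives. Quantile normalization ended the calls of Eef1akmt1, Eif2d, Eif4a3l1, Eif4e3, Eif4h and Eif5a with GFP-mCherry. With mCherry-Fc it ended those of Eef1akmt1, Eif2b1, Eif2b4, Eif2b5, Eif3f, Eif4a1, Eif4e3 and Eif6. Under all 22 alternatives tried for each comparison, 12 of the 28 calls with GFP-mCherry held, those of Eef1a2, Eef1aknmt, Eef1b2, Eef1e1, Eif1a, Eif1ad, Eif2b2, Eif2b3, Eif3b, Eif3l, Eif4a3 and Eif4e1b. With mCherry-Fc 11 of the 25 held, those of Eef1aknmt, Eef1b2, Eef1e1, Eif1a, Eif1ad, Eif2b3, Eif3b, Eif3d, Eif3l, Eif4a3 and Eif4e1b. Leaving out a single array ended the calls of Eef1akmt1, Eif2b4, Eif2d, Eif2s3x, Eif4a3l1, Eif4e, Eif4e3, Eif4h and Eif5a with GFP-mCherry, with adjusted p-values of up to 0.0809. With mCherry-Fc it ended those of Eef1akmt1, Eif2a, Eif2b1, Eif2b4, Eif4a1 and Eif6, with adjusted p-values of up to 0.136, the highest being Eif2b1's without untreated replicate 7.

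Other differences also changed with the number range, a contrast that was not tested itself. Within low and within high numbers the GFP-mCherry difference was 0.36 and 0.20 for Eif1ax, 0.48 and 0.18 for Eef1akmt1, 0.22 and 0.08 for Eif4e and -0.47 and -0.09 for Eif4a3l1, all of which passed within low numbers alone. It was -0.07 and -0.28 for Eif2s3x, which passed within high numbers alone. The GFP-mCherry calls of Eif2d and Eif5a also passed within low numbers alone, and those of Eif2b4 and Eif4g3 within high numbers alone. Some genes not called over all arrays passed in 1 range. With GFP-mCherry these included Eif5b (0.35 and -0.02), Eif4a2 (0.27 and 0.03) and Eif4e2 (0.25 and -0.01) within low numbers, and Eif2a (-0.05 and -0.36) and Eif3a (0.08 and -0.27) within high numbers. With mCherry-Fc they included Eif4a2 (0.38 and 0.04) and Eif5b (0.34 and -0.06) within low numbers and Eef1akmt2 (0.16 and -0.35) within high numbers. Of the genes called with mCherry-Fc, Eif4e (0.32 and 0.11), Eif3m (0.33 and 0.17), Eif1ax, Eif2b1 and Eif4a1 passed within low numbers alone. Those of Eef1a2, Eif2a and Eif2b4 passed within high numbers alone, as did Eif2b2, Eif2b5 and Eif6 above.

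Among the 5 methyltransferase genes, whose products methylate eEF1A or eEF2, Eef1aknmt moved most. It stood at 7.82 to 7.99 (median 7.89) with GFP-mCherry and 7.72 to 8.14 (median 7.87) with mCherry-Fc, against 7.14 to 7.62 (median 7.41) untreated. It rose by 0.51 (limma's adjusted p = 0.000579) and 0.52 (adjusted p = 0.000635). On the IL-22 arrays it stood at 7.93, 7.92, 7.92 and 7.42 against 7.73, 7.65, 7.20 and 7.24, with the high-numbered arrays low in both groups, and did not pass (log2 0.34, adjusted p = 0.0864). Eef1akmt1 rose by 0.33 and 0.32 with the synthetic ligands. Eef2kmt rose with IL-22 alone among the ligands by the test (log2 0.20, adjusted p = 0.0416), a call kept in 8 of 18 alternatives, with an adjusted p of 0.183 without untreated replicate 2. Eef1akmt2 and Eef1akmt3 passed with no ligand.

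GFP-mCherry and mCherry-Fc were compared directly at the same dose and protocol, to ask whether the ligand for both chains and the ligand for one differ. None of the 54 genes passed in limma's fit, where 1.09% of all genes did. The differences ran from -0.30 to 0.11, and at an unadjusted p under 0.05 there were 3, Eef1e1 (log2 -0.17), Eif3m (log2 -0.12) and Eif3l (log2 0.10), where 8.78% of all genes had such a p. The 95% intervals of all 54 lay between -0.64 and 0.25, and each was specific to its gene, with a median SE of 0.06. Within high replicate numbers Eif5 passed, at 10.30 to 10.60 with GFP-mCherry and 10.83 to 10.96 with mCherry-Fc (log2 -0.45, adjusted p = 0.0261, n = 3 each). Within low numbers it stood at 10.34 to 10.59 and 10.59 to 10.64 and did not pass (log2 -0.15, adjusted p = 0.491).

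The response to each synthetic ligand was compared with the response to IL-22 by limma's interaction term. For GFP-mCherry 6 of the 54 genes passed, 4 higher and 2 lower, where 13.6% of all genes did (9.23% higher and 4.40% lower). For mCherry-Fc 4 passed, all higher, where 13.4% did (8.76% higher and 4.60% lower), so neither share exceeded the background in this fit. With a batch term for number range 13 genes passed for each ligand, where 20.8% of all genes did for GFP-mCherry and 21.5% for mCherry-Fc. The GFP-mCherry response was higher for Eif1ad (log2 0.38, adjusted p = 0.000567), Eif3l (log2 0.36, adjusted p = 0.00116), Eif2b2 (log2 0.31, adjusted p = 0.0311) and Eef1b2 (log2 0.29, adjusted p = 0.00725). It was lower for Eif2s2 (log2 -0.43, adjusted p = 0.0494) and Eif2s3x (log2 -0.29, adjusted p = 0.037), both lost when arrays were centred on their medians, and the second probe set of Eif2s2 gave -0.21 (adjusted p = 0.421). Leaving out single arrays also ended the calls of Eif2b2, Eif2s2 and Eif2s3x, with adjusted p-values of up to 0.126. The mCherry-Fc response was higher for Eif1ad (log2 0.30, adjusted p = 0.0054), Eif1b (log2 0.27, adjusted p = 0.0417), Eef1b2 (log2 0.27, adjusted p = 0.0153) and Eif3l (log2 0.26, adjusted p = 0.0203), with Eif1b and Eef1b2 lost in the fit with the replicate block. Eif1b had an adjusted p of 0.135 without IL-22 replicate 1, and Eif3l of 0.0597 without untreated natural replicate 3. For Eif1a the differences between responses were -0.37 (adjusted p = 0.171) and -0.26 (adjusted p = 0.35), and for Eef1e1 -0.31 (adjusted p = 0.106) and -0.14 (adjusted p = 0.506), so the larger rises with IL-22 did not pass as differences. Receptor line and ligand cannot be told apart in these contrasts.

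Without ligand, 11 of the 54 genes differed between the synthetic and natural receptor lines, 6 higher and 5 lower in the synthetic line, where 15.2% of all genes differed (8.60% higher and 6.62% lower). Among the 11682 genes with a mean of at least 6, which hold 51 of the 54, these 11 and 4 more passed, where 28.2% of genes did. The number called was thus near the background of genes as bright. The groups did not overlap for 8 of the 54, where this held for 10.0% of all genes. Lower in the synthetic line were Eif1ad (log2 -0.44, limma's adjusted p = 6.29e-07), Eef1e1 (log2 -0.39, adjusted p = 0.00243), Eif2b3 (log2 -0.34, adjusted p = 0.000288), Eif6 (log2 -0.31, adjusted p = 0.0131) and Eif3d (log2 -0.27, adjusted p = 0.000887). Higher in the synthetic line were Eif2s3x by 0.34, Eif2a by 0.31, Eif3h by 0.28, Eif3m by 0.25, Eif3i by 0.25 and Eif4b by 0.21. Eif3h stood at 12.29 to 12.35 (median 12.32) in untreated synthetic receptor cells and at 12.14, 12.11, 11.95 and 11.94 in untreated natural receptor cells, without overlap. Eif4b, for a cofactor of the helicase, stood at 11.31 to 11.45 (median 11.37) against 11.30, 11.21, 11.11 and 11.02, also without overlap. Eif3i stood at 10.71 to 10.91 (median 10.86) against 10.59, 10.76, 10.47 and 10.52, and its ranges overlapped. For Eif2a the untreated natural values were 10.42, 10.35, 10.22 and 10.18. The Eif3m difference did not pass at its second probe set (log2 0.07), and without untreated natural replicate 5 the adjusted p was 0.0614 for Eif2a and 0.0537 for Eif4b.

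These line differences changed with the replicate number range, whose untreated arrays share no number between the lines. Low and high were set separately in each line, so these splits compare subsets that no label matches. Within low numbers 14 genes passed, 1 higher and 13 lower, where 11.8% of all genes passed. Within high numbers 20 passed, 15 higher and 5 lower, where 28.8% did. The direction of the calls over all genes was not counted within the ranges. Eif5 was lower in the synthetic line within low numbers (log2 -0.35, limma's adjusted p = 0.0268, n = 3 and 2) and higher within high numbers (log2 0.97, adjusted p = 2.39e-05). Eif4g2, for an eIF4G relative that works without eIF4E, also passed in opposite directions, at -0.38 and 0.38, and so did Eif2s2, at -0.34 and 0.31. Eif1a was lower by 0.80 within low numbers (log2 -0.80) and had a difference of 0.09 within high numbers. Eif1ad, Eef1e1, Eif2b3 and Eif3h kept their direction and their calls within both ranges.

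**Figure D3:**
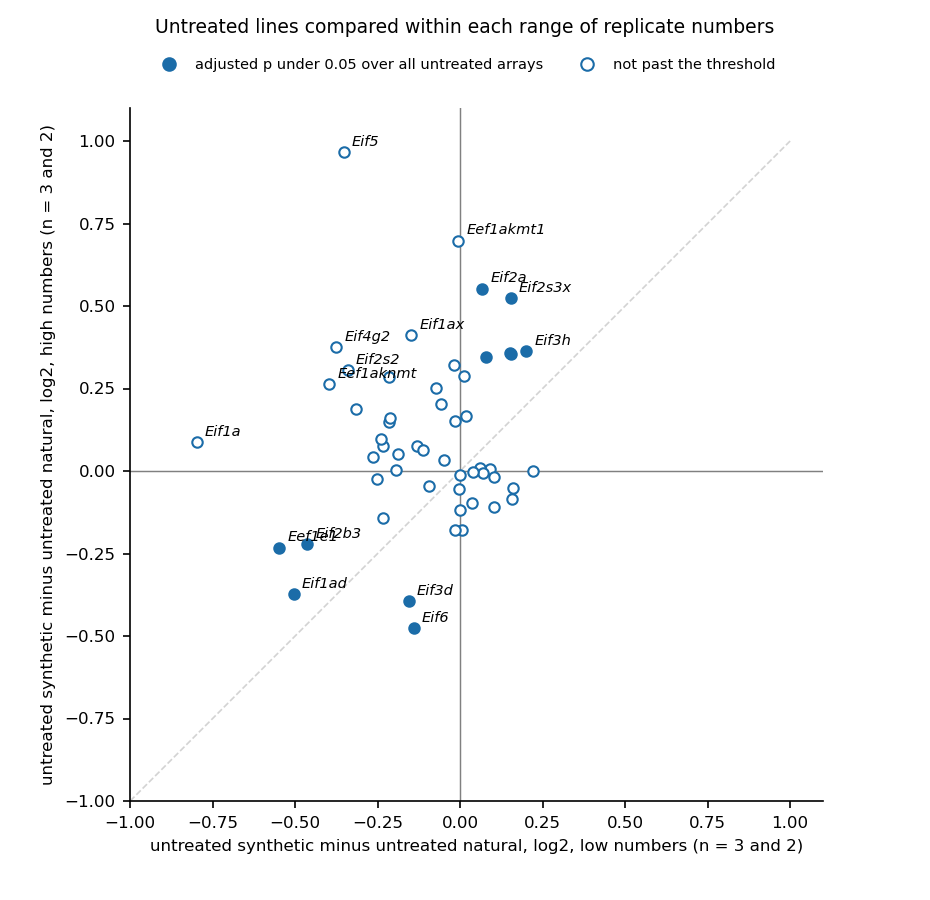
Each point is 1 of the 54 factor genes, with the untreated synthetic minus untreated natural difference in log2 intensity within low replicate numbers on the x axis and within high numbers on the y axis (n = 3 and 2 arrays in each). Filled points passed over all untreated arrays, the dashed line marks equal differences, and Eif5 lies at -0.35 and 0.97. No label matches the ranges between the lines.

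**Figure D4:**
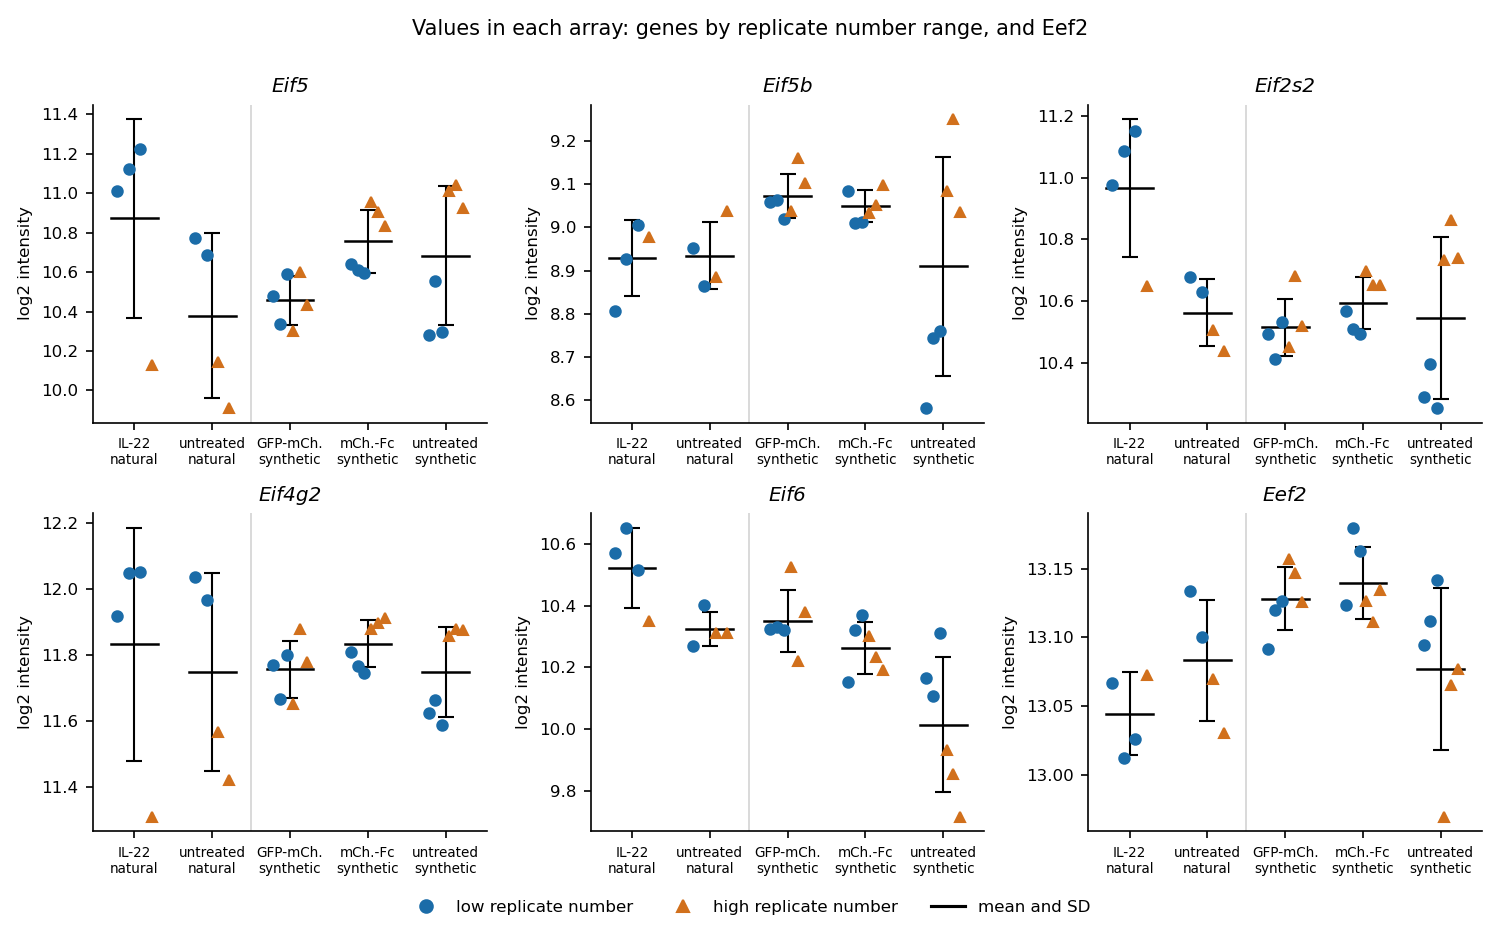
Log2 intensity on every array for 5 factor genes whose values moved with the replicate number range, and for Eef2, by group, with circles for low and triangles for high numbers and black lines for the mean and SD. Untreated synthetic arrays of Eif5 stood at 10.28 to 10.55 for low and 10.92 to 11.04 for high numbers, while the untreated natural arrays ran the other way.

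Neighbouring genes of the translation pathway were counted from lists chosen by function, with earlier results of these data known. Their counts are read against the 26%, 26.9% and 11.4% of all genes called with GFP-mCherry, mCherry-Fc and IL-22, or the 40.7%, 40.1% and 21.7% of genes with a mean of at least 6. Of 20 cytosolic tRNA synthetase and scaffold genes measured, 12 rose and 1 fell with GFP-mCherry, 12 rose with mCherry-Fc and 3 rose with IL-22, and without ligand 8 were lower and 1 higher in the synthetic line. Hars, the histidyl-tRNA synthetase gene, rose most with GFP-mCherry (log2 0.49) and mCherry-Fc (log2 0.45), and Rars, the arginyl one, with IL-22 (log2 0.49). Of 8 genes whose products modify eIF5A or eEF2, 6 rose and 1 fell with each synthetic ligand, led by Dohh (log2 0.60 and 0.55), for the last step of hypusine synthesis on eIF5A, and Dph2 (log2 0.58 and 0.61), for diphthamide synthesis on eEF2. With IL-22 2 of them rose and 1 fell. Of 9 mitochondrial translation factor genes 3 rose with GFP-mCherry and 4 with mCherry-Fc, led by Tufm, the mitochondrial elongation factor Tu gene (log2 0.65 and 0.50), and 1 rose with IL-22.

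Of the 4 genes of eIF2 alpha kinases, 3 passed with IL-22. Eif2ak4, for the amino acid sensor GCN2, rose by 1.16 with IL-22 (limma's adjusted p = 1.48e-11) and Eif2ak2, for the double-stranded RNA sensor PKR, by 0.98 (adjusted p = 3.33e-05), while Eif2ak3, for the endoplasmic reticulum sensor PERK, fell by 0.68 (log2 -0.68, adjusted p = 1.02e-05). Eif2ak1, for the haem sensor HRI, did not pass (log2 -0.06, adjusted p = 0.81). None of the 4 kinase genes passed with GFP-mCherry or mCherry-Fc. The differences between the GFP-mCherry and IL-22 responses were -1.23, -0.94 and 0.73, and all 3 passed (adjusted p = 2.17e-09, 0.0016 and 0.000188), while that of Eif2ak1 was 0.13 and did not (adjusted p = 0.499). In the list of 9 with the eIF2 alpha phosphatase genes, 3 rose and 1 fell with IL-22 and 2 rose with each synthetic ligand. In the list of 10 genes of cap binding control, 1 rose and 3 fell with IL-22, 1 rose and 2 fell with GFP-mCherry and 2 rose and 1 fell with mCherry-Fc, and without ligand 4 were higher and 2 lower in the synthetic line. Among them Pdcd4, for an inhibitor of eIF4A, fell by 0.58 with IL-22 and by 0.26 with GFP-mCherry, and stood higher by 0.87 without ligand in the synthetic line. Of 8 termination and rescue genes 2 rose and 2 fell with GFP-mCherry, 3 rose and 1 fell with mCherry-Fc and 1 rose with IL-22. Of 9 genes listed under poly(A) binding and helicases, 2 rose with GFP-mCherry, 3 with mCherry-Fc and none with IL-22. These were Dhx29, a helicase gene (log2 0.18 and 0.24), with mCherry-Fc Paip1, for a poly(A) binding protein partner (log2 0.18), and Denr (log2 0.36 and 0.39), whose product is a recycling and reinitiation factor and neither of the things the list is named for.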

How the data were processed

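The authors deposited log2 intensities, 1 for each probe set, which Affymetrix Expression Console 4.0 produced per the submitters' processing notes. The labels describe the level as core, for genes or exons. The background correction and normalization algorithm are not given in the sources used here. Per the labels' protocols 150 ng of total RNA was amplified. Values ran from 1.79 to 14.31 and no arrays held identical values; the number of arrays limits the precision.

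Of 35556 probe sets, 21789 had 1 gene symbol, 1621 several and 12146 none, and those with several or none were left out, among them 10 that name a factor gene. Symbols were updated through 21698 matched Entrez identifiers, and 91 kept the annotation's name. The probe set with the highest mean was used per gene, and 7 factor genes had several. For Eif2s2, Eif3m, Eif4a1, Eif4e and Eif5a the sources do not say whether it reads the gene or a near-identical copy. All 26 arrays in 5 groups entered 1 limma fit (R 4.3.3, limma 3.58.1, lmFit and eBayes, two-sided, Benjamini-Hochberg over 19938 genes, threshold 0.05), which was tested on simulated data. No filter on dim genes was applied. Promoters are RefSeq's (GRCm38.p6), and 42 of the 54 genes matched.

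The members, lists and comparisons were chosen with earlier results of these data known. Values in every array are given for representatives of each role and for up to 6 of the largest rises and falls called in each comparison. From the other lists the largest called changes are named. Any other name was picked with its values in view. The alternatives tried were quantile normalization, median centring, the mean of a gene's probe sets, a minimum mean of 6, a trended and robust prior, only the groups compared, the replicate block, the number range as a batch term or split, and leaving out each array.

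The labels do not say what replicate numbers mark. Deviations from group means of same-numbered arrays correlated at 0.378, 0.313 and 0.621 between IL-22 and untreated, at 0.26, 0.466 and 0.326 between mCherry-Fc and untreated, and at 0.22, 0.271 and 0.105 between GFP-mCherry and mCherry-Fc. The highest correlations with an array of another number were 0.304, 0.353 and 0.362 between IL-22 and untreated. They were 0.369, 0.377 and 0.335, and 0.311, 0.214 and 0.161, in the other 2 comparisons. Some arrays thus matched another number better, and these values do not show that numbers mark pairs. By a rule that every same-number value exceed 0.1, these arrays were treated as possible pairs, but not GFP-mCherry with untreated arrays (-0.146 to 0.417). The main fit used no block.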

Additional observations from a re-analysis of the deposited data

Results flagged for a closer look

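In 5 cases a single array lay far from the rest of its group by Dixon's gap test, among 160 gene and group pairs examined, where chance flags about 1 in 20. IL-22 replicate 5 was such an array for Eif1a (9.59 against 10.18 to 10.19 on the others), for Eef1aknmt (7.42 against 7.92 to 7.93) and for Eif4a1 (12.55 against 12.73 to 12.76). It is the only IL-22 array in the high number range, where the myeloid markers were high, and its part in these values was not tested. Eif1ad stood at 9.18 on untreated natural replicate 4 against 9.37 to 9.38. Eef1a1 stood at 13.63 on untreated synthetic replicate 12 against 13.98 to 14.05.

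The responses of the lines differed, by limma's interaction term, for 6 of the 54 genes with GFP-mCherry and 4 with mCherry-Fc, where 13.6% and 13.4% of all genes did, so the counts are not above the background. Taken as GFP-mCherry minus IL-22, the difference of the responses was 0.38 for Eif1ad, 0.36 for Eif3l, 0.31 for Eif2b2, 0.29 for Eef1b2, -0.29 for Eif2s3x and -0.43 for Eif2s2, and median centring ended the calls of Eif2s3x and Eif2s2. Taken as mCherry-Fc minus IL-22 it was 0.30 for Eif1ad, 0.27 for Eif1b, 0.27 for Eef1b2 and 0.26 for Eif3l, and the replicate block ended the calls of Eif1b and Eef1b2.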

How the results depend on the processing

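The counts of factor genes called with GFP-mCherry and with mCherry-Fc stayed within 1.5 times of 28 and 25 under every alternative run. With IL-22 the count of 9 became 2 with only the groups compared, 5 with the replicate block and 3 within high numbers, where 6.13%, 11.0% and 3.81% of all genes passed. Every count within high numbers that involves IL-22 rests on 1 IL-22 array, whose spread is taken from the remaining groups, and says nothing about stability. The direct comparison of the synthetic ligands, 0 otherwise, gave 1 within high numbers (1.57% of all genes). The GFP-mCherry and IL-22 responses differed for 6 genes in the main analysis, for 10 with median centring, 10 with a minimum mean of 6, 13 with a batch term for number range and 1 within high numbers, where 16.5%, 26.7%, 20.8% and 4.59% of all genes passed. For mCherry-Fc and IL-22 the count of 4 became 10 with centring, 11 with the minimum mean, 2 with only the groups compared, 13 with the batch term, 8 within low numbers and 0 within high numbers, where 17%, 26.2%, 10.2%, 21.5%, 21.3% and 4.37% of all genes passed. Split by direction, centring gave 10 higher and 0 lower for both. The main fit gave 4 and 2 for GFP-mCherry and 4 and 0 for mCherry-Fc. Quantile normalization gave 4 and 3 for GFP-mCherry and 3 and 2 for mCherry-Fc. The direction of the calls over all genes was not counted under centring or quantile normalization. Between the untreated lines 11 became 7 with only the groups compared and 20 within high numbers (8.64% and 28.8% of all genes). Reversed values there were -0.38 for Eif4g2 and -0.35 for Eif5 within low numbers and 0.31 for Eif2s2 within high numbers. The causes were not tested. Leaving out each array gave 3 to 14 with IL-22 (3 without IL-22 replicate 3, 14 without IL-22 replicate 5), 23 to 28 with GFP-mCherry, 21 to 27 with mCherry-Fc and 0 to 0 between these ligands. It gave 3 to 12 for the difference of GFP-mCherry and IL-22 responses (3 without natural untreated replicate 5, 12 without IL-22 replicate 5), 3 to 9 for that of mCherry-Fc and IL-22 (9 without IL-22 replicate 5) and 11 to 13 between the lines. With the replicate block 30 genes passed with GFP-mCherry, whose arrays share only a number with the untreated ones, 25 with mCherry-Fc, 9 and 5 in the response differences and 0 between the synthetic ligands, where 32.9%, 20%, 15.4%, 12.8% and 0.502% of all genes passed. No paired analysis was possible between the untreated lines because they share no replicate number. Bright probe sets near the top of the scale and dim ones near the median limit what differences can be read.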
